A study of Mus musculus with 12 samples.

Results

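The genes described here process the DNA damage that germinal centre B cells inflict on their own immunoglobulin genes. The list held 39 genes of somatic hypermutation, class switching and DNA repair. For each gene, the probe set annotated to that gene alone with the highest mean over the 12 arrays was taken, which left 37 genes. Rnf8 and Trp53 had no probe set that met this rule and were not analysed here. All 37 passed the filter on dim probe sets, which required at least 3 of the 12 arrays to reach the array's median. They were therefore tested among 11206 genes that passed, of 19938 genes with a probe set of their own. By repair branch they comprised 6 translesion synthesis genes, 9 base excision genes, 4 mismatch repair genes, 5 end joining genes and 13 damage signalling genes.

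The study profiled germinal centre B cells from the spleens of female mice by microarray. SwHEL B cells, which carry an antigen receptor specific for hen egg lysozyme and here the CD45.1 marker, had been given to C57BL/6J recipients (CD45.2), and the response was raised with the lysozyme mutant HEL3x coupled to sheep red blood cells. Donor cells with an IgG1+, CD38 low phenotype were sorted at day 10. Cells of the light zone (LZ) were CD86 high and CXCR4 low, and cells of the dark zone (DZ) were CXCR4 high and CD86 low. Each zone was split into cells of high and low affinity for antigen, which gave 4 groups of 3 arrays: high-affinity LZ, low-affinity LZ, high-affinity DZ and low-affinity DZ. The gate that separated the affinities, the age of the mice and the number of mice behind an array are not given in the sources used here. All cells came from 1 receptor-transgenic strain, had switched to IgG1 and were taken at 1 time. The groups therefore offer no comparison with unswitched or non-germinal centre B cells.

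The germinal centre alternates between both zones. In the dark zone B cells divide and mutate their antibody genes, and in the light zone they test the mutated receptor against antigen and seek T cell help. Mutation begins when activation-induced deaminase turns cytosine into uracil. Base excision enzymes remove the uracil and mismatch repair proteins recognise the mispaired base. Gaps opened by either route can be filled by error-prone translesion polymerases, which spreads mutations to neighbouring bases. In class switching the same uracils become double-strand breaks in switch regions, which damage signalling proteins protect and end joining factors seal.

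Values are log2 RMA expression values (a background-corrected, normalised summary of the probes of a gene), so a difference of 1 is a doubling. The array medians over all probe sets lay between 5.57 and 5.72. Labels shared by 1 array of each group joined the arrays into 3 matched sets, and values below are listed in the order of matched sets 1, 2 and 3. The 4 arrays of matched set 3 stood apart from the other 8. On the first principal component of all tested genes they lay at 12.5 to 52.9, against -26.4 to -6.71 for matched sets 1 and 2. Of 8 light zone markers, which include the sorting marker Cd86, 5 rose in LZ cells and all 8 were above 0, with a median difference of 1.04. Of 6 dark zone markers, which include the sorting marker Cxcr4, 1 fell in LZ cells and all 6 were below 0, with a median of -0.60. Here and below a gene is called, or rose or fell, where limma's Benjamini-Hochberg adjusted p over all 11206 tested genes was under 0.05, and a block is a fit with the matched set as a further term. The mean level of the B cell markers was 10.1 to 10.4 in LZ arrays and 9.94 to 10.4 in DZ arrays. The T cell genes Cd3d, Cd3g and Cd4 and the macrophage genes Adgre1, Csf1r and Cd14 were too dim to be tested. The macrophage genes Cd68, Lyz2, C1qa and C1qb passed the filter. By list, 2 of 5 T cell, 4 of 7 macrophage and 6 of 7 granulocyte genes with a probe set passed it. Their mean levels per array were 4.69 to 6.40 in LZ and 4.83 to 5.79 in DZ arrays for the T cell list, 5.10 to 5.99 in LZ and 5.15 to 5.54 in DZ arrays for the macrophage list, and 5.35 to 7.003 in LZ and 5.42 to 7.27 in DZ arrays for the granulocyte list. Of 5 follicular dendritic and stromal genes, 2 were tested (Cr2 and Col1a1), and 1 of these 2 was called higher in LZ cells. Nothing in the labels ties replicates to different mice, and the spread behind each p-value may be that of technical repeats. In these bulk samples fewer cells of a type and less RNA per cell cannot be told apart.

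The promoters of 4 genes whose zone differences are described next are shown first, from 250 bases before to 50 bases after the annotated start (RefSeq, build GRCm38.p6). Polh (chr17:46202592-46202891, minus strand) and Hmces (chr6:87913726-87914025, plus strand) are the repair genes that fell in LZ cells. Neil1 (chr9:57148256-57148555, minus strand) passed the test once matched sets were accounted for, and Msh3 (chr13:92354954-92355253, minus strand) had the second smallest p of the 37. Capitals mark matches to a searched motif on either strand.
Polh: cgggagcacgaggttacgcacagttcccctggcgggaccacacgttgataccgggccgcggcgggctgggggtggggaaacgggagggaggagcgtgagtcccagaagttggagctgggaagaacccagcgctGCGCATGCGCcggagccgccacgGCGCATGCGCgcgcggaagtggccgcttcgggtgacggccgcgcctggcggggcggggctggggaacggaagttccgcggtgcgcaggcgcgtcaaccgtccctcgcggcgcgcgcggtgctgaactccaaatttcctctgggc
Msh3: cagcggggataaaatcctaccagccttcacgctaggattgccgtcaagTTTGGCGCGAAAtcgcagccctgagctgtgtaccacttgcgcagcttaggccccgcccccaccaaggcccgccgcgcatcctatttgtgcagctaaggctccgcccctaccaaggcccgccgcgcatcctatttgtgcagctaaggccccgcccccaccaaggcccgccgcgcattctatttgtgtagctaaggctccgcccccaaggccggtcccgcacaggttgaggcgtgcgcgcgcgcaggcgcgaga
Hmces: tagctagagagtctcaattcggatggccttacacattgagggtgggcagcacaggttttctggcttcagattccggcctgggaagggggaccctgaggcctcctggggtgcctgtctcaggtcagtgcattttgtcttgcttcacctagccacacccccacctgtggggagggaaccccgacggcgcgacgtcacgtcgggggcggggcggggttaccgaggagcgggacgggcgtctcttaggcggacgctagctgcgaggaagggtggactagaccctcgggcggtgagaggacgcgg
Neil1: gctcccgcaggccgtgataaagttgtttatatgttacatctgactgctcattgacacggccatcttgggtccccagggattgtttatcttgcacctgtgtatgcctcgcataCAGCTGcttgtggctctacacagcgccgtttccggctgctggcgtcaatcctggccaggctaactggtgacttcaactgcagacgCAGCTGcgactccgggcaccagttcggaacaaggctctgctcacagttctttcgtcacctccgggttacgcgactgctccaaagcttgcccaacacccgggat

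The Polh window held 2 copies of the palindrome GCGCATGCGC, the core of NRF1 sites and the longest palindrome that occurs more than once in the window, 117 and 94 bases before the start. It was searched for after the sequence had been seen, and 0.971% of the 32851 promoters in the table held it. The Msh3 window held 2 overlapping matches to TTTNNCGC, an E2F-like motif present in 5.17% of promoters, at 202 and 198 bases before the start. The Neil1 window held CAGCTG, an E-protein E-box present in 16.3% of promoters, at 138 and 53 bases before the start. The Hmces window held none of the searched letters. The other letters searched were the forkhead core TGTTTAC (3.65% of promoters), the E-box CACGTG (7.15%), the CCAAT box CCAAT (37.4%) and the cell cycle element TTTGAA (17.9%). None of these occurred in any of the 4 windows. G and C made up 72% of the Polh window, 65% of the Msh3 window, 64.3% of the Hmces window and 56% of the Neil1 window, against a median of 52.7% over all promoters.

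The comparison of LZ with DZ cells asks whether the mutation and repair machinery differs in transcript level between the zone where B cells are selected and the zone where they divide and mutate. Of the 37 repair genes, only Polh was called, and it was lower in LZ cells. Over all tested genes, 0.419% were called in either direction and 0.187% were called lower (47 genes and 21 genes). The 36 other repair genes did not pass the test. Polh encodes DNA polymerase eta, the translesion polymerase that introduces most mutations at A and T bases during hypermutation.

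Polh measured 9.28, 9.46 and 9.71 in high-affinity LZ cells and 8.97, 8.93 and 9.37 in low-affinity LZ cells, against 10.13, 10.30 and 10.55 in high-affinity DZ cells and 10.23, 9.84 and 10.25 in low-affinity DZ cells. Every LZ array lay below every DZ array, with the low-affinity LZ arrays lowest within each matched set. Across all tested genes, 0.455% were lower in LZ cells without overlap of the arrays. The LZ minus DZ difference was -0.93 ± 0.14 (SE, 6 arrays a zone), with a 95% interval of -1.23 to -0.63. The limma adjusted p was 0.0213, and 0.00474 with the matched set as a block. All 6 matched LZ and DZ pairs had the same direction, with differences between -1.26 and -0.84. Without the 4 arrays of matched set 3 the difference was -0.97 (limma adjusted p = 0.0139).

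The Polh call depended on which array was left out. It was lost in 5 of the 12 fits that left out 1 array, where the limma adjusted p was 0.0749 without array 1 of low-affinity DZ cells, 0.0616 and 0.0555 without arrays 1 and 2 of high-affinity LZ cells, and 0.0729 and 0.0675 without arrays 1 and 2 of low-affinity LZ cells. It was kept in the other 7, and the difference stayed between -1.0 and -0.87 in all 12 fits. The genes of G2 and M phase also differed between the zones: all 11 tested were below 0 in LZ minus DZ, 4 of them called, and their mean level was 8.88 to 9.62 in LZ arrays against 9.48 to 9.93 in DZ arrays. The part of this shift in the Polh difference was not tested.

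Within single affinities the Polh difference was -0.84 ± 0.19 at high affinity and -1.02 ± 0.19 at low affinity (SE, 3 arrays a group). At high affinity 0 of the 37 repair genes were called, where 0.0357% of all tested genes were called by limma, 2 had an unadjusted p under 0.05 (against 4.53% of all tested genes) and the fit with the matched set as a block called 0 of 37, against 0.0803% of all tested genes. With the block 13 of 37 (35.1%) had an unadjusted p under 0.05, against 8.09% of all tested genes. The limma adjusted p of Polh was 0.349 there, 0.0778 with the block and 0.00646 with array weights, where 1.3% of all tested genes were called. At low affinity 0 of the 37 were called, where 0.0357% of all tested genes were called, and 2 had an unadjusted p under 0.05, against 4.69% of all tested genes (2 with the block, against 7.73%). With the block, Polh alone was called at low affinity (limma adjusted p = 0.0394, against 0.149 without the block), where 0.223% of all tested genes were called. Array weights called it too (limma adjusted p = 0.00651), where 0.357% of all tested genes were called. The difference between both affinities, tested as the interaction, was 0.17 ± 0.27 (limma adjusted p = 1).

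**Figure D1:**
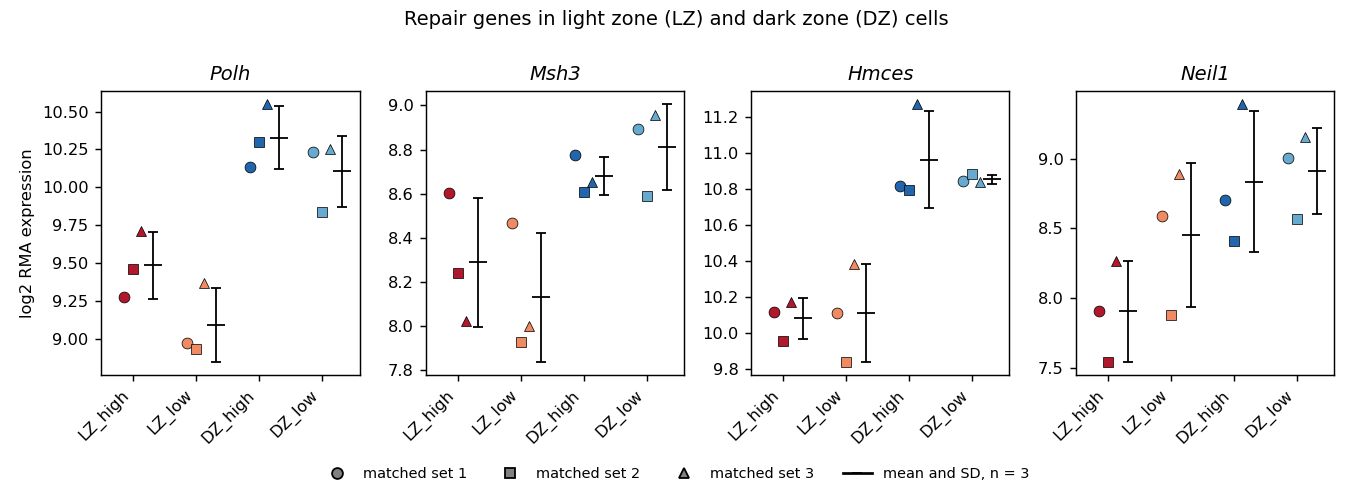
Log2 RMA expression of Polh, Msh3, Hmces and Neil1 in each array of the 4 groups, with light zone groups left of dark zone groups. Symbols mark the matched sets and bars the mean and SD of 3 arrays. Polh and Hmces arrays do not overlap between zones, Msh3 arrays touch within 0.01 at 8.60 and 8.59, and Neil1 arrays overlap.

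Translesion genes as a group did not share the direction of Polh. Of the 6, 3 were above 0 and 3 below, and the median LZ minus DZ difference was 0.01, against -0.00 over all tested genes. Poli, which encodes the related polymerase iota, was at -0.55 ± 0.25 and lower in LZ cells in 6 of 6 matched pairs, without passing the test (limma adjusted p = 0.704). Its lowest value, 6.05, was that of the high-affinity LZ array of matched set 3, and without matched set 3 the difference was -0.24. Polq, whose product drives an error-prone end joining route, lay the other way at 0.57 ± 0.30 and was higher in LZ cells in 6 of 6 pairs (limma adjusted p = 0.821). Polk, a polymerase that extends from mispaired ends, was at 0.37, and Rev1, a deoxycytidyl transferase that recruits other translesion polymerases, at 0.36. Rev3l, the catalytic subunit of polymerase zeta, was at -0.34 and at 0.01 without matched set 3.

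The 9 base excision genes lay close to 0. Their differences ran from -0.26 for Mbd4, a glycosylase that acts on mispaired thymine and uracil, to 0.37 for Apex1, the main endonuclease at abasic sites, and none was called. The median was 0.01. Ung, the glycosylase that removes the uracils made by activation-induced deaminase, differed by 0.04 ± 0.09 with a 95% interval of -0.16 to 0.24. Its 12 arrays spanned only 0.45 log2 units. All low-affinity DZ arrays and the high-affinity DZ array of matched set 2 held the same value, 6.4844. The narrow interval and span therefore do not show that Ung was constant.

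Apex1 measured 8.53, 9.10 and 9.49 in high-affinity LZ cells and 8.57, 8.43 and 8.70 in low-affinity LZ cells, against 8.29, 8.67 and 8.74 in high-affinity DZ cells and 8.35, 8.0004 and 8.54 in low-affinity DZ cells. The high-affinity LZ arrays of matched sets 2 and 3 were the highest, and the zones overlapped. Apex1 was higher in LZ cells in 6 of 6 matched pairs, by 0.37 ± 0.17 (limma adjusted p = 0.713). Of the others, Polb, the gap-filling polymerase, was at 0.26, Parp1, a sensor of strand breaks, at 0.08 and Lig3, a ligase, at 0.01. Smug1, a second uracil glycosylase, was at -0.09, Xrcc1, the scaffold of single-strand break repair, at -0.15 and Apex2, a homologue of Apex1, at -0.03.

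Among the 4 mismatch repair genes, Msh3 stood at -0.54 ± 0.14 and the other members lay between -0.03 and 0.25. The MSH3 protein recognises loops of unpaired bases, while MSH6 recognises single mismatches, including those left by deamination. Msh3 measured 8.60, 8.24 and 8.02 in high-affinity LZ cells and 8.47, 7.93 and 7.999 in low-affinity LZ cells, against 8.78, 8.61 and 8.65 in high-affinity DZ cells and 8.89, 8.59 and 8.95 in low-affinity DZ cells. The highest LZ array exceeded the lowest DZ array by 0.01, and all 6 matched pairs were lower in LZ cells. Msh3 did not pass the test (limma adjusted p = 0.198, and 0.0563 with the block). It was called when arrays were weighted by their quality (limma adjusted p = 0.0247). Msh6 differed by -0.03 ± 0.10, with a 95% interval of -0.26 to 0.20. Pms2, a mismatch repair endonuclease, was at 0.25 and Exo1, the exonuclease that opens the mismatch tract, at 0.06.

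In end joining, none of the 5 genes was called. Lig4, the ligase of the pathway, had the largest difference at -0.76 ± 0.40 (limma adjusted p = 0.837). It measured 8.22, 8.64 and 5.86 in high-affinity LZ cells and 8.19, 7.996 and 7.46 in low-affinity LZ cells, against 8.45, 8.69 and 8.41 in high-affinity DZ cells and 8.51, 8.88 and 7.97 in low-affinity DZ cells. The value of 5.86 lay far below the other 11 arrays. Without that array the difference was -0.33. Prkdc, the catalytic subunit of the DNA-dependent protein kinase, was at 0.42 ± 0.23 and higher in LZ cells in 6 of 6 pairs (limma adjusted p = 0.854). Xrcc5 and Xrcc6, both subunits of the Ku heterodimer that caps broken ends, were at 0.21 and 0.04. Xrcc4, the partner of Lig4, was at -0.03 and at 0.39 without the high-affinity LZ array of matched set 3.

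Of the 13 damage signalling genes, 12 were above 0 in LZ minus DZ and Mdc1 alone was below, although Rif1 and Brca2 turned just below 0 (-0.02 and -0.00) after quantile normalisation and Trp53bp1 did (-0.042) with array weights. Leaving out 1 array put Brca2 below 0 in 7 of 12 fits, Rif1 in 6, Trp53bp1 and Brca1 in 2 each, and Paxip1 and Rad50 in 1 each. Their median was 0.19, where 49.0% of all tested genes were above 0 and the median was -0.00. None was called, and 1 had an unadjusted p under 0.05 (5 of 13, or 38.5%, with the block, against 10.8% of all tested genes). Without matched set 3, 12 of 13 were again above 0, with a median of 0.30. Split by affinity, 11 of 13 were above 0 at high affinity with a median of 0.42, and 6 of 13 at low affinity with a median of -0.01. Without matched set 3, 12 of 13 were above 0 at high affinity (median 0.49) and 11 of 13 at low affinity (median 0.11). The counts thus came close, while the medians stayed apart. The interaction of the 13 genes had a median of 0.36 with 11 above 0, and of 0.38 with 13 above 0 without matched set 3. The interaction term called 0 of the 37 repair genes and 0% of all tested genes by limma, and 0 of the 37 had an unadjusted p under 0.05, against 1.58% of all tested genes (2 with the block, against 3.64%). A difference between the affinities was thus not shown for any of them.

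Chek2, the effector kinase downstream of ATM, had the smallest p of this branch. It measured 7.90, 7.95 and 6.78 in high-affinity LZ cells and 7.55, 7.42 and 7.80 in low-affinity LZ cells, against 6.64, 7.24 and 6.87 in high-affinity DZ cells and 7.05, 7.35 and 7.23 in low-affinity DZ cells. Apart from the high-affinity array of matched set 3, every LZ array exceeded every DZ array. The difference was 0.50 ± 0.20 (limma adjusted p = 0.607) and 0.63 without matched set 3 (limma adjusted p = 0.119). With array weights Chek2 was called (limma adjusted p = 0.0241).

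The kinases Atm and Atr, which start the response to breaks and to stalled forks, were at 0.38 and 0.44, each higher in LZ cells in 6 of 6 matched pairs. The smallest pair differences were 0.01 for Atm and 0.02 for Atr, and Atr reached the array's median in only 7 of 12 arrays. Rnf168, a ubiquitin ligase that marks chromatin around breaks, was at 0.47, and at 0.26 without the high-affinity DZ array of matched set 3. Nbn and Rad50, subunits of the complex that holds broken ends, were at 0.35 and 0.25, and the effector kinase gene Chek1 was at 0.19. A second, dimmer probe set of Nbn gave -0.11. Brca1 and Brca2, which act in homologous recombination, were at 0.10 and 0.02. Trp53bp1 and Rif1, which protect switch region breaks from resection, were at 0.06 ± 0.13 and 0.02 ± 0.63, and the adaptor genes Paxip1 and Mdc1 at 0.03 and -0.22.

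**Figure D2:**
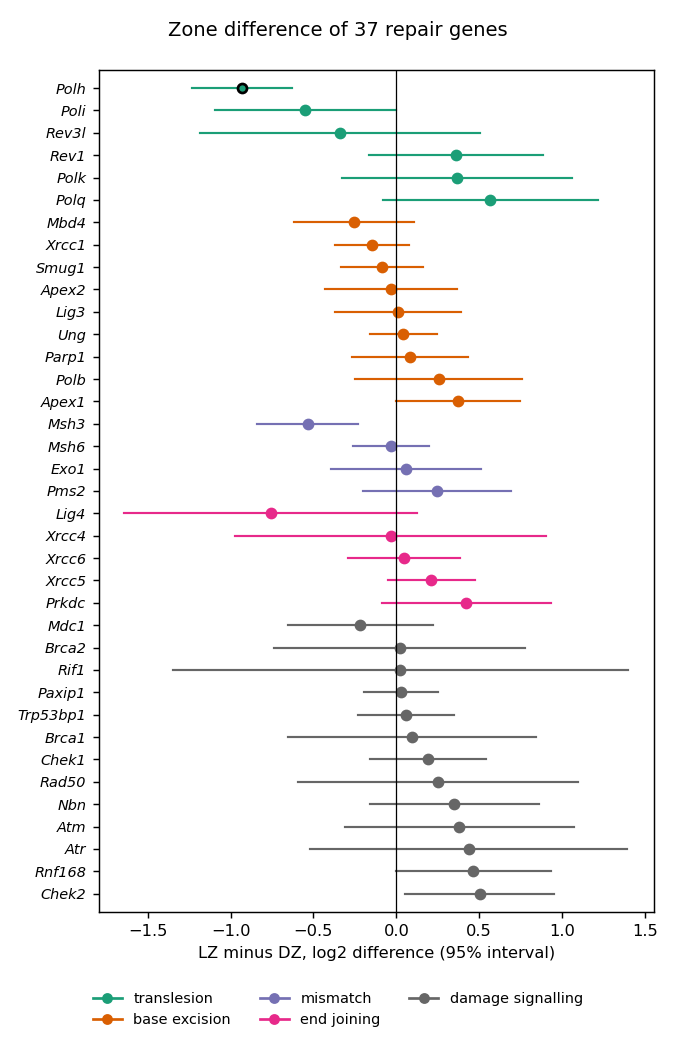
LZ minus DZ difference of each of the 37 repair genes (log2, mean of both affinities), with its 95% interval from limma over 12 arrays, coloured by repair branch. The point with a black ring is Polh at -0.93, the only gene called. Of the 13 damage signalling genes 12 lie right of 0, most of them with intervals that cross it.

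Counted without adjustment, 4 of the 37 repair genes had p under 0.05 in LZ minus DZ (10.8%), against 7.06% of all tested genes. With the matched set as a block the count was 13 of 37 (35.1%), against 10.8% of all tested genes. After adjustment the block called Polh alone among them, where it called 1.2% of all tested genes. With array weights 3 were called (Polh, Msh3 and Chek2), where 2.92% of all tested genes were called.

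Further genes of the same pathways were read from a second list of 60, of which 47 were tested. That list, too, was chosen with earlier results of these data known. In LZ minus DZ 1 of the 47 (2.13%) was called, Hmces, and it was lower. Over all tested genes 0.419% were called in either direction and 0.187% were called lower. The product of Hmces shields abasic sites in single-stranded DNA by binding them covalently. Hmces measured 10.12, 9.95 and 10.18 in high-affinity LZ cells and 10.11, 9.84 and 10.38 in low-affinity LZ cells, against 10.82, 10.80 and 11.27 in high-affinity DZ cells and 10.84, 10.88 and 10.84 in low-affinity DZ cells. Every LZ array lay below every DZ array. The difference was -0.81 ± 0.13 (limma adjusted p = 0.0234, and 0.00753 with the block). The call was lost in 7 of the 12 fits that left out 1 array: without any array of low-affinity DZ cells, or without array 1 or 2 of either LZ group, where the limma adjusted p ranged up to 0.0752. It was also lost when arrays were centred on their medians (-0.80, limma adjusted p = 0.0515).

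Neil1 encodes a glycosylase that removes oxidised bases. It measured 7.91, 7.54 and 8.26 in high-affinity LZ cells and 8.59, 7.88 and 8.89 in low-affinity LZ cells, against 8.70, 8.41 and 9.39 in high-affinity DZ cells and 9.01, 8.57 and 9.16 in low-affinity DZ cells. The zones overlapped over all arrays, but within each matched set and affinity the LZ array was the lower. The difference of -0.70 ± 0.23 did not pass the test (limma adjusted p = 0.376), and it passed with the matched set as a block (limma adjusted p = 0.0135). The median difference of the 47 genes was 0.03, with 27 above 0 (57.4%, against 49.0% of all tested genes) and 20 below. With the block 2 of the 47 were called, Hmces and Neil1, both lower, against 1.2% of all tested genes. Without overlap of the arrays Fanca was higher in LZ cells and Hmces lower, against 0.535% and 0.455% of all tested genes. Fanca was higher in 6 of 6 matched pairs, with 6.698 in its lowest LZ array and 6.692 in its highest DZ array. It was not called, without or with the block.

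The comparison of high- with low-affinity cells within a zone asks whether repair genes differ between cells whose receptors bind the antigen more and less strongly. In LZ cells 0 of the 37 repair genes were called by limma, as were 0% of all tested genes, and 0 of the 37 were called with the block (0% of all tested genes) or with array weights (0.919%). Unadjusted, 1 of 37 had p under 0.05 (2.7%), against 4.16% of all tested genes, and with the block 5 of 37 (13.5%) against 7.95%. The median difference was 0.10, with 23 genes above 0. By branch the medians were 0.18 for translesion, 0.01 for base excision, 0.20 for mismatch repair, -0.13 for end joining and 0.27 for damage signalling. In the same order they were 0.11, 0.002, 0.24, 0.22 and 0.44 without matched set 3, so the sign of end joining changed.

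Chek1, the kinase that restrains cells with stalled replication, had the smallest p. It measured 9.04, 8.53 and 8.45 in high-affinity LZ cells against 8.33, 7.70 and 7.82 in low-affinity LZ cells, and 8.13, 8.45 and 8.18 in high-affinity DZ cells against 8.26, 7.72 and 7.96 in low-affinity DZ cells. In LZ cells every high-affinity array exceeded every low-affinity array, whereas in DZ cells the affinities overlapped. The difference in LZ cells was 0.72 ± 0.22 (unadjusted p = 0.00811), which did not hold over all tested genes (limma adjusted p = 0.999, and 0.581 with the block). In DZ cells it was 0.27 ± 0.22. The interaction was 0.45 ± 0.32 and was not called (limma adjusted p = 1).

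In LZ cells, 4 of the 37 repair genes (10.8%) were higher at high affinity without overlap of the arrays, against 4.32% of all tested genes: Chek1, Msh6, Rnf168 and Ung. None was lower without overlap, against 4.49% of all tested genes. Msh6 measured 10.02, 9.93 and 10.05 in high-affinity LZ cells against 9.82, 9.62 and 9.86 in low-affinity LZ cells, and 9.89, 10.05 and 9.94 in high-affinity DZ cells against 9.79, 9.69 and 10.11 in low-affinity DZ cells. The LZ groups were separate and the DZ groups overlapped. The difference in LZ cells was 0.24 ± 0.15. For Ung and Rnf168 the LZ differences were 0.17 ± 0.13 and 0.43 ± 0.30.

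Polh was 0.39 ± 0.19 higher in high- than in low-affinity LZ cells, in 3 of 3 matched sets, without passing the test (limma adjusted p = 0.999, and 0.612 with the block). Apex1 was at 0.48 ± 0.24 in LZ cells and at 0.25 without the high-affinity array of matched set 3. Its values above show the high-affinity array higher in matched sets 2 and 3 and about equal in matched set 1.

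Xrcc4 had the largest affinity difference in LZ cells, -1.15 ± 0.60, and it rested on 1 array. It measured 8.998, 8.60 and 6.24 in high-affinity LZ cells against 8.62, 8.80 and 9.88 in low-affinity LZ cells, and 8.58, 8.59 and 8.69 in high-affinity DZ cells against 9.09, 8.19 and 8.199 in low-affinity DZ cells. Both extreme values belonged to matched set 3. Without the array at 6.24 the difference was -0.30, and without all of matched set 3 it was 0.09.

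**Figure D3:**
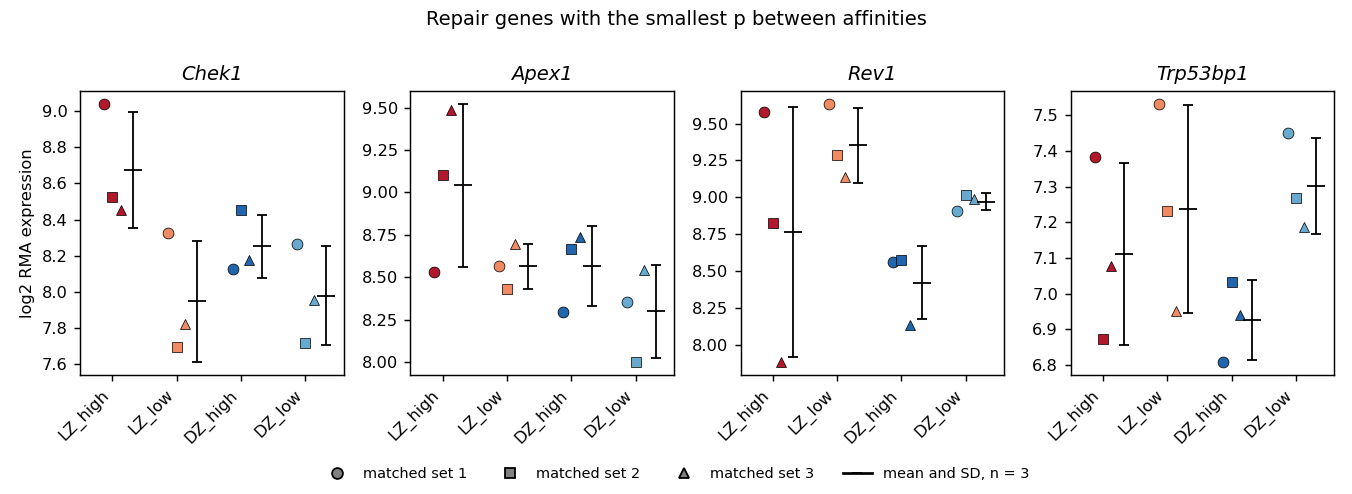
Log2 RMA expression of Chek1, Apex1, Rev1 and Trp53bp1 in each array of the 4 groups, with light zone groups left of dark zone groups and high affinity left of low. Symbols mark the matched sets and bars the mean and SD of 3 arrays. High- and low-affinity arrays of Chek1 do not overlap in LZ cells, and those of Rev1 and Trp53bp1 do not overlap in DZ cells.

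In DZ cells 0 of the 37 repair genes were called, as were 0% of all tested genes by limma, and 0 of 37 had an unadjusted p under 0.05 without or with the block, against 2.2% and 5.33% of all tested genes. The median high minus low difference was 0.04, with 20 genes above 0. By branch the medians were -0.27 for translesion, 0.06 for base excision, -0.04 for mismatch repair, 0.13 for end joining and -0.15 for damage signalling. In the same order they were -0.19, -0.06, 0.04, -0.05 and -0.01 without matched set 3. The signs of base excision, mismatch repair and end joining thus changed. Over all arrays, none of the 37 was higher at high affinity without overlap, against 3.29% of all tested genes. Rev1 and Trp53bp1, 2 of 37 (5.41%), were lower without overlap, against 3.86%.

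Rev1 measured 9.58, 8.82 and 7.88 in high-affinity LZ cells against 9.63, 9.29 and 9.14 in low-affinity LZ cells, and 8.56, 8.57 and 8.13 in high-affinity DZ cells against 8.90, 9.02 and 8.99 in low-affinity DZ cells. The high-affinity array was the lower in all 6 comparisons within a matched set and zone. The groups overlapped in LZ cells and were separate in DZ cells. The difference was -0.59 ± 0.34 in LZ cells and -0.55 ± 0.34 in DZ cells. Averaged over both zones it was -0.57 ± 0.24 (unadjusted p = 0.0358, limma adjusted p = 0.944), and -0.33 without matched set 3. In that averaged comparison 0 of the 37 repair genes were called, as were 0% of all tested genes by limma and with the block, and 3 (Polh, Rev1 and Chek1) had an unadjusted p under 0.05 (8.11%), against 5.25% of all tested genes.

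Trp53bp1 measured 7.38, 6.87 and 7.08 in high-affinity LZ cells against 7.53, 7.23 and 6.95 in low-affinity LZ cells, and 6.81, 7.03 and 6.94 in high-affinity DZ cells against 7.45, 7.27 and 7.19 in low-affinity DZ cells. The LZ groups overlapped and the DZ groups were separate. The difference was -0.13 ± 0.19 in LZ cells and -0.38 ± 0.19 in DZ cells (limma adjusted p = 1).

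The other branches had no gene apart between the affinities in DZ cells. Apex2 measured 6.27, 5.78 and 5.28 in high-affinity LZ cells against 6.19, 6.20 and 5.63 in low-affinity LZ cells, and 5.70, 5.93 and 5.62 in high-affinity DZ cells against 6.29, 6.20 and 5.81 in low-affinity DZ cells. Its high-affinity DZ array was the lower in all 3 matched sets, and the groups overlapped, with a DZ difference of -0.35 ± 0.26. Prkdc measured 8.65, 8.21 and 7.25 in high-affinity LZ cells against 8.33, 8.36 and 7.79 in low-affinity LZ cells, and 7.56, 7.79 and 7.02 in high-affinity DZ cells against 8.01, 7.93 and 7.75 in low-affinity DZ cells. It too was the lower at high affinity in all 3 matched sets of DZ cells, with overlapping groups. Its DZ difference was -0.44 ± 0.33, and -0.22 without the high-affinity DZ array of matched set 3. Pms2 measured 8.16, 7.51 and 7.41 in high-affinity LZ cells against 8.16, 7.53 and 7.88 in low-affinity LZ cells, and 7.38, 7.67 and 7.16 in high-affinity DZ cells against 8.24, 7.46 and 7.26 in low-affinity DZ cells. The affinities overlapped in both zones. Its DZ difference of -0.25 ± 0.29 turned to 0.04 without array 1 of low-affinity DZ cells, the highest of the group.

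Genes of DNA replication and division lay mostly higher at high affinity, without passing the test. In LZ cells 14 of 15 G1 and S phase genes and 11 of 11 G2 and M phase genes were above 0, with medians of 0.26 and 0.53, and in DZ cells 15 of 15 and 10 of 11, with medians of 0.39 and 0.18, and none was called. The 6 granulocyte genes tested had a median high minus low difference of -0.73 in LZ cells (5 below 0) and of 0.37 in DZ cells (6 above 0), and none was called. For the 7 B cell markers tested the medians were -0.18 in LZ cells (7 below 0) and -0.22 in DZ cells (5 below 0 and 2 above), and none was called. The part of these differences in those of Chek1 and the other repair genes was not tested. Among the 47 further pathway genes none was called in either zone. In LZ cells the smallest p belonged to Rad51d (-0.37 ± 0.15) and Rad54l (0.47 ± 0.20), both of homologous recombination. In DZ cells it belonged to Rpa2, a subunit of the single-strand binding complex (0.66 ± 0.19), and Apobec1, an RNA-editing deaminase (-0.35 ± 0.15). Among the 47, Brip1, Exosc3 and Fancd2 were higher at high affinity without overlap of the LZ arrays, and Rad51d was lower. Of all tested genes 4.32% were higher and 4.49% lower in this way. Without overlap of the DZ arrays, Rad54l, Rpa1 and Rpa2 were higher and Apobec1 lower, against 3.29% and 3.86% of all tested genes. In DZ cells 33 of the 47 were above 0, with a median of 0.15, where 50.4% of all tested genes were above 0.

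**Figure D4:**
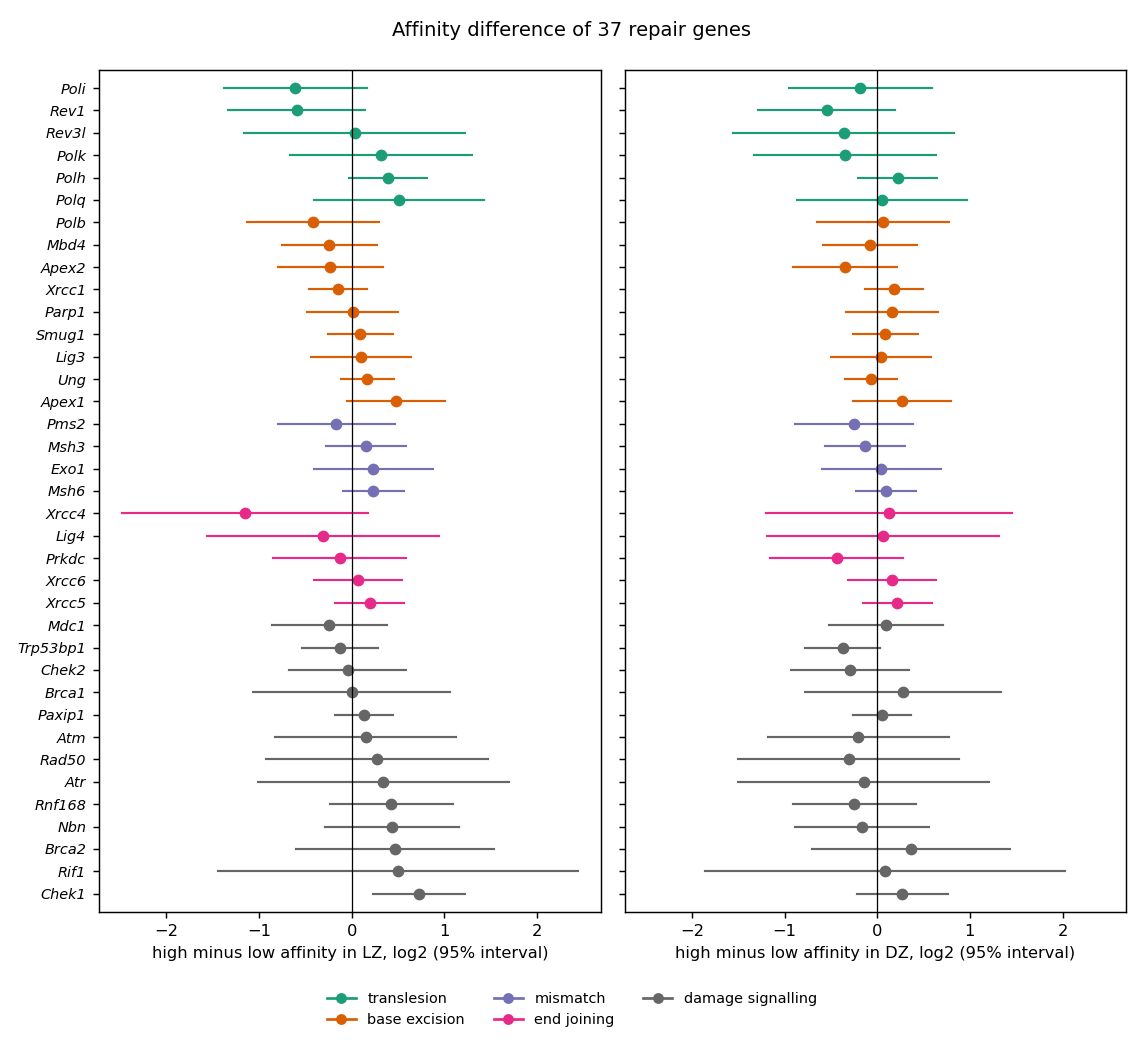
High minus low affinity difference of each of the 37 repair genes (log2) in LZ cells on the left and in DZ cells on the right, with 95% intervals from limma, coloured by repair branch. No gene was called, and most intervals cross 0. Chek1 at 0.72 and Xrcc4 at -1.15 are the ends of the LZ panel.

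Most of the repair genes had lower values in matched set 3 than in matched sets 1 and 2. In matched set 3 the 37 genes lay at a median of -0.38 relative to matched sets 1 and 2, against 0.04 for all tested genes. Of the 37, 29 were below 0 and 14 (37.8%) were below -0.5, against 44.9% and 11.8% of all tested genes. The medians were -0.71 for damage signalling, -0.70 for translesion, -0.43 for end joining, -0.22 for mismatch repair and -0.06 for base excision. Rif1 had the lowest value at -1.98, followed by Atr at -1.45, Rad50 at -1.16, Rev3l at -1.10 and Lig4 at -1.02. The matched set 3 values of Atr, 4.66 to 4.90, were dim and lay below the array medians of 5.57 to 5.72. The 47 further pathway genes had a median of 0.03, with 22 below 0. Of these 47, 10 (21.3%) were below -0.5, also a larger share than the 11.8% of all tested genes. Polh did not share the shift and was at 0.33.

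Rif1 shows the size of this spread within the groups. Its mean was 6.40 ± 1.74 in high-affinity LZ cells and 5.90 ± 0.85 in low-affinity LZ cells, against 6.17 ± 0.55 in high-affinity DZ cells and 6.09 ± 1.56 in low-affinity DZ cells (SD, n = 3 each). The matched set 3 array was the lowest of its group in all 4 groups. Ranges over the 12 arrays were 3.64 for Xrcc4, 3.29 for Rif1 and 3.02 for Lig4, against 0.45 for Ung, 0.46 for Paxip1, 0.47 for Xrcc1 and 0.49 for Msh6. The zone interval of Rif1 was -1.35 to 1.40, and its SE was 0.63 without the block and 0.30 with it. For Xrcc4 the interval was -0.97 to 0.91, and its SE was 0.43 with or without the block. What sets matched set 3 apart was not tested.

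**Figure D5:**
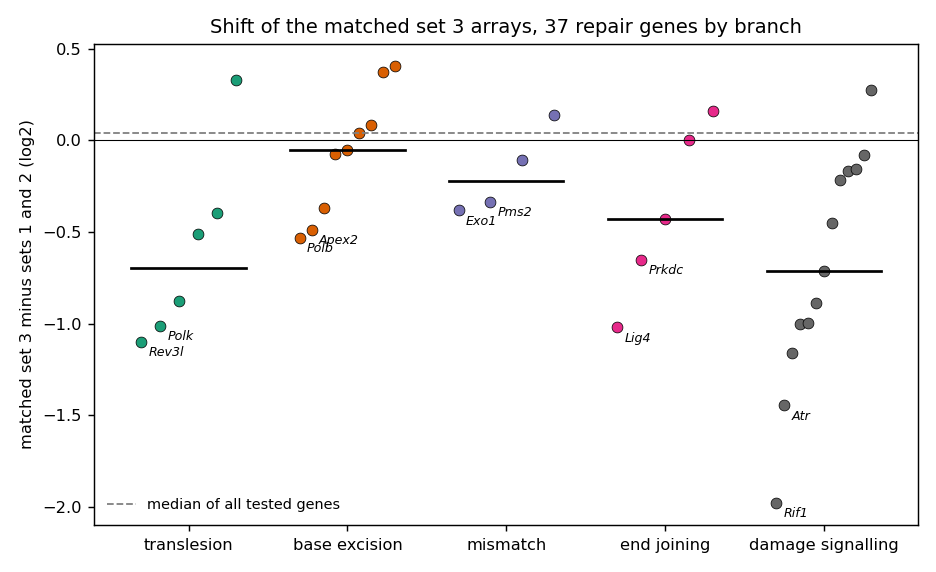
Difference of the 4 matched set 3 arrays from the 8 arrays of matched sets 1 and 2 for each of the 37 repair genes (log2), by repair branch, with each branch's median as a bar and the median of all tested genes as a dashed line. Damage signalling and translesion genes have medians of -0.71 and -0.70, and base excision genes a median of -0.06.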

How the data were processed

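RNA of sorted cells was amplified and biotin-labelled with NuGen kits, per the labels' protocols, and hybridised to 1-colour arrays, 3 for each of 4 groups. The deposited values are log2 expression after RMA, per the submitters' processing notes, which also name the build mm8; the log base was read from the range of the values. Scanner files and detection calls were not used here, so no probe set can be called absent. The number of arrays limits the precision.

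Of 28853 probe sets, 21789 had 1 gene symbol, 1621 several and 5443 none. Genes were tested with limma 3.58.1 (R 4.3.3; lmFit and eBayes, two-sided) over all 4 groups, with Benjamini-Hochberg adjustment over the 11206 genes and a threshold of 0.05. The script was tested on simulated data. Called means past that threshold. Of 18 array pairs within a matched set, 17 had correlated deviations from their group means over 0.1 (median 0.41, lowest -0.07). Pairs from different matched sets and different groups had a median of -0.28. Such deviations cancel within a group, so this negative value follows from the positive one and is not a separate result. The labels do not say what the shared suffix stands for, and the block is an alternative. All members are named; all 12 values are given for those called with or without the block and for each branch's smallest p in 3 comparisons. Members, branches, marker lists and the second list were chosen with earlier results of these data known. The alternatives were the block, array weights, scaling, filters, variance settings and leaving out each array; leaving out matched set 3 was added after seeing the data.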

Additional observations from a re-analysis of the deposited data

How the results depend on the processing

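The Polh difference between zones kept its sign under every alternative run, and its call under all but 5 of the 12 fits without 1 array; over those 12 fits the number of repair genes called in LZ minus DZ was 0 to 1. With array weights 3 repair genes were called in LZ minus DZ, 2 at high affinity and 1 at low affinity, and with the replicate block 1 was called at low affinity (Polh); the block changed no other call among the 37. Over all genes, LZ minus DZ called 47 without the block, 135 with it, 327 with array weights, 87 without matched set 3, 95 without matched set 3 and with the block, 80 after quantile normalisation, 28 after centring arrays on their medians and 12 to 67 without 1 array, and in LZ cells array weights called 103 genes between affinities, where limma without weights called 0.

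Signs changed only for differences that were never called; the cause was not tested. With array weights the LZ minus DZ difference was 0.0055 for Rev3l, 0.012 for Smug1, -0.037 for Parp1, -0.11 for Lig3, -0.015 for Pms2, 0.045 for Xrcc4, -0.090 for Xrcc6 and -0.042 for Trp53bp1. Without matched set 3, with or without the replicate block, it was 0.0091 for Rev3l, 0.079 for Apex2 and 0.14 for Xrcc4, and the high minus low difference of Xrcc4 in LZ cells was 0.0898. After quantile normalisation it was -0.015 for Rif1 and -0.00044 for Brca2. Over the 12 fits without 1 array, LZ minus DZ ran from -0.16 to 0.0901 for Apex2, -0.0238 to 0.15 for Parp1, -0.0761 to 0.13 for Lig3, -0.0723 to 0.0317 for Msh6, -0.0912 to 0.20 for Exo1, -0.30 to 0.39 for Xrcc4, -0.0540 to 0.13 for Xrcc6, -0.0140 to 0.13 for Trp53bp1, -0.42 to 0.52 for Rif1, -0.0369 to 0.0737 for Paxip1, -0.00707 to 0.52 for Rad50, -0.15 to 0.41 for Brca1 and -0.21 to 0.36 for Brca2, and the high minus low difference of Pms2 in DZ cells from -0.45 to 0.0401.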
